A study of Macaca mulatta with 30 samples.

Results

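The genes described here are 10 transcription factors of salivary and oral epithelium, namely SOX10, SOX9, SOX2, PITX1, TFAP2A, TP63, ETV1, ELF5, EHF and SPDEF. They were chosen by name, as the listed rows that occur in the table of transcript abundances, and all 10 of 10 were present among its 21292 genes. All 10 also passed the filter on low values (at least 1 TPM in at least 6 of the 30 libraries), which 13550 genes passed. SOX2 passed it only through the sublingual gland, where 6 libraries reached 1 TPM against 0 in every other tissue. TP63 passed it through 5 sublingual and 3 parotid libraries, and TFAP2A through 6 parotid, 5 submandibular and 6 sublingual libraries. No pancreas or liver library reached 1 TPM for either.

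Salivary glands grow from the oral epithelium by branching of an epithelial bud into ducts and secretory end pieces, the acini. SOX factors mark progenitor and acinar or ductal cells of these buds, PITX1 and AP-2 factors are known from the surface of the embryonic mouth and face, p63 maintains basal cells, and several ETS factors are restricted to epithelia and to secretory cells. Pancreas and liver are gut-derived organs with a different set of regulators, and SOX9 is known there from duct cells.

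RNA sequencing was done on 5 flash-frozen tissues of 6 untreated rhesus macaques (Macaca mulatta), animals 1 to 4 being female and animals 5 and 6 male: liver, pancreas and the parotid, submandibular and sublingual salivary glands. With 1 library of each tissue from every animal, each tissue has 6 libraries and tissues can be compared within animals. RNA was taken from tissue sections, so every cell type of a section contributes. The left parotid was sampled, except in animal 3, whose parotid library came from the right side. The design sets each gland against the pancreas and the pancreas against the liver, and the 3 pairs of glands were compared as well. The ages of the animals are not given in the sources used here.

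Values are TPM, the abundance of a gene's transcripts per length as a part of the library's total, so that genes can be compared with each other within a tissue. The sum over genes is the same in each library, and the 10 most abundant genes took from 11.1% of it in 1 submandibular library to 81.4% in 1 parotid library. Read depth is not in the table, so no counting error can be given. In whole tissue, fewer cells of a type and less RNA per cell cannot be told apart.

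Defining markers were read against the tissue labels. The summed level of 11 pancreatic enzyme genes lay between 181000 and 380000 TPM in 5 pancreas libraries but at 4000 TPM in that of animal 4, which was high in fat cell genes (18000 TPM). The sum of 10 salivary secretory genes was 274000 to 386000 TPM in 5 submandibular libraries and 2580 TPM in that of animal 4, where fat cell genes summed to 7840 TPM and red cell genes to 10900 TPM. Skeletal muscle genes summed to 79600 TPM in the parotid library of animal 6 and to 23900 TPM in the sublingual library of animal 5. Squamous epithelium genes, which mark the lining of the mouth, summed to 29100 and 85700 TPM in the sublingual libraries of animals 1 and 4, against 3.29 to 311 TPM in the other 4. Values without the libraries of animal 4, the parotid library of animal 6 or the sublingual libraries of animals 1 and 4 stand beside the results they move.

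In the parotid gland, 7 of the 10 factors were higher than in the pancreas by limma (a linear model with tissue and animal as terms, called at an adjusted p below 0.05), where 2.24% of all genes tested were called higher, and 7 had ranges apart from the pancreas, beside 1.36% of all genes. In the submandibular gland 7 were also higher, beside 2.25% of all genes, and PITX1 alone had ranges apart, beside 0.959%. In the sublingual gland 9 were higher, beside 10.4% of all genes, 6 had ranges apart, beside 2.53%, and SOX9 alone was not called. SOX2 passed the filter only through the sublingual gland, so its place in the sublingual counts is a description. Without it 8 of 9 were higher and 5 had ranges apart. TFAP2A and TP63 passed the filter only through gland libraries, so their places in the counts of the 3 glands are a description too. With trimmed-mean scaling, which sets the bulk of genes equal between libraries, 8, 8 and 9 of the 10 factors were higher, beside larger shares of all genes in the 3 comparisons (8.92%, 8.25% and 11.4%). The median difference of the 10 factors from the pancreas on the log2(TPM + 1) scale was 2.48 (parotid), 2.11 (submandibular) and 2.8 (sublingual), where the medians over all genes tested were -0.48, -0.33 and 0.23. These 3 comparisons share the 6 pancreas libraries. The log2(TPM + 1) scale understates the change of genes near 0.

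**Figure D1:**
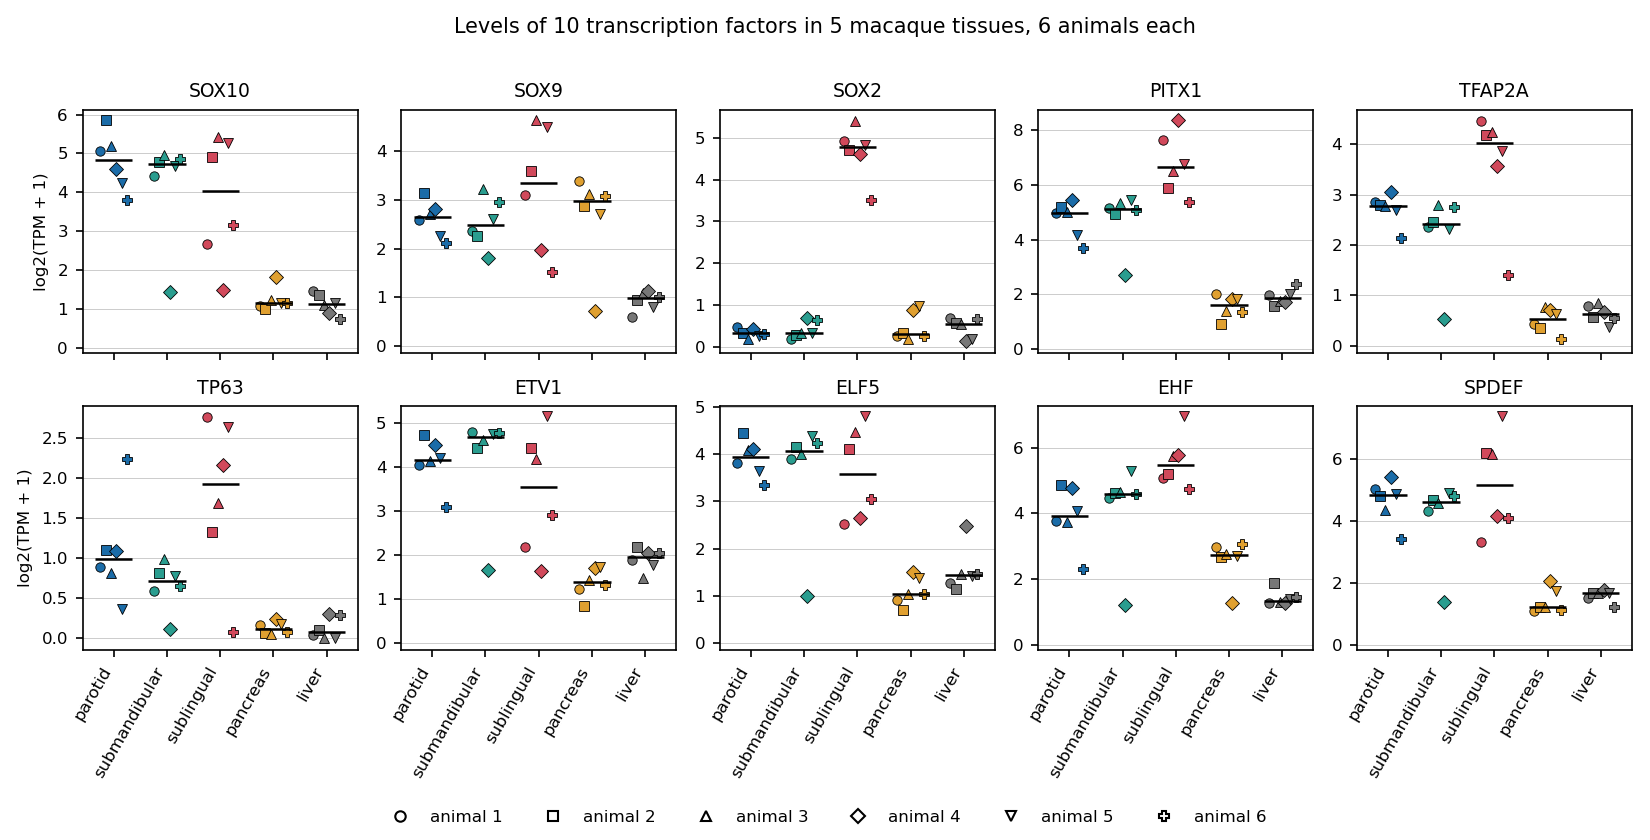
Level of each of the 10 transcription factors in log2(TPM + 1) on the vertical axis, by tissue; each symbol is 1 library, symbol shapes mark the animal and lines the median of 6. SOX2 stands at 10.5 TPM or more in every sublingual library and below 1 TPM in all others, and the submandibular library of animal 4 is the lowest of its tissue for 9 factors, all but SOX2.

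SOX10, a factor of neural crest derivatives such as Schwann cells and melanocytes that is also made by salivary acinar and myoepithelial cells, ranged from 13.0 to 57.4 TPM in the parotid, with a median of 27.8 TPM. In the submandibular gland it ranged from 1.7 to 30.0 TPM (median 25.4), and in the sublingual gland from 1.78 to 41.7 TPM (median 18.5). The pancreas had 0.971 to 2.54 TPM (median 1.21) and the liver 0.678 to 1.73 TPM (median 1.18). Every parotid library lay above every pancreas and liver library. The submandibular and sublingual libraries of animal 4 fell into the pancreas range, and the other gland libraries, 16 of 18, lay above it. The parotid exceeded the pancreas by 3.56 ± 0.5 (standard error) on the log2(TPM + 1) scale, with a limma adjusted p of 1.18e-05 and a higher value in 6 of 6 animals. The difference was 2.95 for the submandibular gland (adjusted p 0.000175) and 2.58 for the sublingual gland (adjusted p 0.00056), each in 5 of 6 animals. Without the pancreas and submandibular libraries of animal 4, the submandibular difference was 3.62, and the sublingual one was 3.33 once the squamous-rich libraries of animals 1 and 4 were left out.

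SOX10 is also a marker of nerve sheath and pigment cells, so their genes were read beside it. The 9 Schwann cell genes summed to 17.4 to 38.2 TPM in the parotid (median 26.5). In the submandibular gland their sum was 16.4 to 1600 TPM (median 23.4). It was 57.3 to 124 TPM in the sublingual gland (median 97.2) and 26.4 to 1430 TPM in the pancreas (median 31.0). Of the 6 genes that passed the filter, limma called 0 in any gland against the pancreas, with 0 at an unadjusted p below 0.05. Of all genes tested, 15.8%, 9.71% and 13.9% were called in parotid, submandibular and sublingual gland. An unadjusted limma p below 0.05 in either direction was reached by 33.3%, 23.9% and 25.8%. The 8 genes read for myoepithelium are contractile genes of smooth-muscle type that vessel walls share. They summed to 230 to 8650 TPM in parotid and 140 to 2110 TPM in submandibular gland. The sublingual sums were 240 to 2900 TPM and the pancreas sums 49.1 to 5100 TPM. The highest parotid and sublingual sums were those of animals 6 and 5, whose libraries were high in skeletal muscle genes. TPM2 reached 8350 TPM in parotid and 2440 TPM in sublingual gland, and TAGLN 3230 TPM in pancreas. The median differences of the 8 genes from the pancreas were 1.4, 0.84 and 1.78 in the 3 glands, against -0.48, -0.33 and 0.23 over all genes tested. Limma called 0, 0 and 2 of them higher (2, 1 and 7 at an unadjusted p below 0.05), and 5, 1 and 1 with trimmed-mean scaling. Of all genes tested, 2.24%, 2.25% and 10.4% were called higher, and 8.92%, 8.25% and 11.4% with that scaling. The shares at an unadjusted limma p below 0.05 are those given above, in either direction. The part of myoepithelial cells in the SOX10 level was not tested. Of the pigment enzymes, TYR and TYRP1 were listed at 0 in every parotid library, and the highest parotid value of DCT was 0.0694 TPM. TYR reached 0.046 TPM in submandibular and 0.0741 TPM in sublingual gland. The other pigment cell genes read, PMEL, MLANA and MITF, reached 0.543, 2.0 and 3.5 TPM in parotid. All 6 genes summed to 0.916 to 4.49 TPM in parotid and 1.85 to 6.72 TPM in submandibular gland. Their sums were 2.64 to 9.63 TPM in sublingual gland and 4.33 to 12.1 TPM in pancreas. In the pancreas and submandibular libraries of animal 4 the Schwann sums of 1430 and 1600 TPM came mainly from S100B, at 1140 and 1050 TPM, a gene that fat cells express too; the pancreas library had the highest SOX10 of its tissue, at 2.54 TPM, and the part of these cells in that value was not tested.

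SOX9, a factor of pancreatic and bile ducts and of growing salivary buds, followed another order. Its median was highest in the sublingual gland at 9.27 TPM (range 1.86 to 24.1), followed by the pancreas at 6.9 TPM (0.645 to 9.42), the parotid at 5.28 TPM (3.31 to 7.83) and the submandibular gland at 4.61 TPM (2.49 to 8.33). The liver was lowest, at 0.979 TPM (0.509 to 1.18). That order holds for TPM as deposited: with trimmed-mean scaling the medians were 8.35 in submandibular gland, 7.95 in parotid, 7.52 in pancreas and 6.4 in sublingual gland. The ranges of the 4 upper tissues overlap, and no gland differed from the pancreas beyond the error by limma: the fitted differences were -0.04 for parotid, -0.11 for submandibular and 0.57 for sublingual on the log2(TPM + 1) scale, each with a standard error of 0.4. The signs of the parotid and submandibular values turn with the scaling of the libraries. SOX9 was higher in pancreas than in liver by 1.72 ± 0.4 (standard error, adjusted p 0.00172), in 5 of 6 animals. The exception was animal 4, whose pancreas library held 0.645 TPM; without it and the submandibular library of that animal, the difference was 2.05.

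SOX9 was the only 1 of the 10 factors called between pancreas and liver by limma, where 6.76% of all genes tested were called higher in pancreas and 23.6% lower. The median difference of the 10 factors there was -0.06, against -0.36 for all genes tested. ETV1 and ELF5 were higher in liver than in pancreas in 6 of 6 animals, which gives the smallest p the exact sign-flip permutation test allows with 6 animals, 0.03125 two-sided and unadjusted, but limma called neither (differences -0.52 and -0.44, adjusted p 0.433 and 0.488). Scaled to genes outside the 100 most abundant, the differences were 0.04 and 0.03. EHF was higher in pancreas in 6 of 6 animals by 1.15 and missed the threshold (adjusted p 0.0748); without the pancreas and submandibular libraries of animal 4 the difference was 1.47 (adjusted p 0.00105).

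SOX2, a factor of pluripotent cells, of foregut and oral epithelium and of progenitors of salivary acini, was confined to 1 tissue at the level of 1 TPM. Its sublingual values were 10.5, 23.5, 25.2, 27.5, 29.4 and 41.4 TPM, in animals 6, 4, 2, 5, 1 and 3. The parotid held 0.146 to 0.392 TPM (median 0.258), the submandibular gland 0.148 to 0.626 TPM (median 0.264), the pancreas 0.142 to 0.957 TPM (median 0.232) and the liver 0.114 to 0.614 TPM (median 0.477). The lowest sublingual library was thus above the highest of the 24 others. The sublingual gland exceeded the pancreas by 4.19 ± 0.24 (standard error, adjusted p 7.35e-12), the parotid by 4.33 (adjusted p 3.23e-12) and the submandibular gland by 4.25 (adjusted p 4.98e-12), each in 6 of 6 animals. As SOX2 passed the filter through the sublingual libraries alone, these values describe the difference that let it pass. The calls were kept with no filter and in every other alternative setting run, and without the sublingual libraries of animals 1 and 4 the difference from the pancreas was 4.16.

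The low SOX2 values elsewhere were set beside genes that belong to another organ. The median of SOX2 in parotid, submandibular gland, pancreas and liver was 0.98%, 1.0%, 0.878% and 1.81% of its sublingual median. Hepatocyte genes, 16 in all, had medians of 0.582% of their liver level in parotid, 0.604% in submandibular gland, 0.754% in sublingual gland and 0.837% in pancreas. Pancreatic enzyme genes stood at 0.541% to 0.84% of their pancreas level in the other 4 tissues. SOX10 in pancreas and liver was at 4.37% and 4.25% of its parotid median, and EHF in pancreas at 12.8% of its sublingual median. What sets these low levels was not tested.

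PITX1, a homeodomain factor of the embryonic mouth, the pituitary and the hindlimb, had the highest median of the 10 factors in each gland, though in parotid it exceeded SOX10 in only 1 of 6 libraries. It ranged from 11.9 to 43.0 TPM in parotid (median 30.8), from 5.58 to 42.3 TPM in the submandibular gland (median 33.7) and from 40.0 to 330.0 TPM in the sublingual gland (median 98.9). The pancreas had 0.909 to 3.0 TPM (median 2.12) and the liver 2.02 to 4.18 TPM (median 2.66). All 18 gland libraries lay above all 12 pancreas and liver libraries, which held for PITX1 alone among the 10. The differences from the pancreas were 3.18 ± 0.45 for parotid, 3.21 ± 0.45 for submandibular gland and 5.19 ± 0.45 for sublingual gland (standard errors; adjusted p 1.12e-05, 1.37e-05 and 1.06e-08), each in 6 of 6 animals. Without the sublingual libraries of animals 1 and 4, which held 200.0 and 330.0 TPM, the sublingual difference was 4.55, and without the pancreas and submandibular libraries of animal 4 the submandibular difference was 3.68.

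TFAP2A encodes AP-2 alpha, a factor of surface ectoderm and neural crest. Its level was 3.4 to 7.33 TPM in parotid (median 5.84), 0.45 to 5.97 TPM in the submandibular gland (median 4.32) and 1.65 to 21.1 TPM in the sublingual gland (median 15.4). In pancreas it was 0.103 to 0.711 TPM (median 0.447) and in liver 0.302 to 0.806 TPM (median 0.543). Of the gland libraries, 17 of 18 were above every pancreas and liver library, the exception being the submandibular library of animal 4. The parotid exceeded the pancreas by 2.21 ± 0.36 (standard error, adjusted p 9.05e-05), with animals between 1.99 and 2.43. The difference was 1.7 for the submandibular gland (adjusted p 0.00217), and 2.07 without the pancreas and submandibular libraries of animal 4. It was 3.12 for the sublingual gland (adjusted p 6.07e-07). As TFAP2A reached 1 TPM in gland libraries alone, these values describe the difference that let it pass the filter. The calls were kept with no filter.

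TP63 encodes p63, the regulator of basal cells in stratified and glandular epithelia, and was the lowest of the 10 factors in pancreas, liver and sublingual gland. Its parotid values were 0.281 to 3.7 TPM (median 0.981), its submandibular values 0.0822 to 0.982 TPM (median 0.632) and its sublingual values 0.0482 to 5.75 TPM (median 2.84). The pancreas held 0.0357 to 0.175 TPM (median 0.0831) and the liver 0.0 to 0.227 TPM (median 0.0483). The sublingual library of animal 6 was as low as the pancreas, and the other 5 were above every pancreas and liver library. TP63 reached 1 TPM in gland libraries alone, so its differences from the pancreas describe what let it pass the filter. The sublingual gland exceeded the pancreas by 1.65 ± 0.33 (standard error, adjusted p 0.0007). The squamous-rich sublingual libraries of animals 1 and 4 held 5.75 and 3.46 TPM. Without 6 libraries that stand apart, these among them, the sublingual difference was 0.89 (adjusted p 0.00685). The parotid exceeded the pancreas by 0.95 (adjusted p 0.0479), a call that was lost in 5 of 6 fits that left out 1 animal. Without the parotid library of animal 6, which held 3.7 TPM and was high in muscle genes, the parotid difference was 0.64 (adjusted p 0.0982). The submandibular difference was 0.53 (adjusted p 0.339). It was called when only the 12 libraries compared were fitted (0.53, adjusted p 0.0208), with trimmed-mean scaling (0.86, adjusted p 0.0431), with quantile normalisation (0.89, adjusted p 0.0317), scaled to genes outside the 100 most abundant (0.98, adjusted p 0.00846) and without 6 libraries that stand apart (0.66, adjusted p 0.0108).

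Basal epithelial genes commonly listed as p63 targets were described beside TP63. Of 15 that passed the filter, limma called 4 higher and 1 lower in parotid than in pancreas, 3 higher and 1 lower in submandibular gland, and 9 higher in sublingual gland. Of all genes tested, 2.24%, 2.25% and 10.4% were called higher in these glands and 13.6%, 7.46% and 3.51% lower. With trimmed-mean scaling 7, 6 and 8 of the list were higher, beside 8.92%, 8.25% and 11.4% of all genes. The median differences of the list were 0.14, 0.5 and 1.39, against -0.48, -0.33 and 0.23 over all genes tested. KRT14, a keratin of basal and myoepithelial cells, was higher in all 3 glands, by 3.01 in parotid (adjusted p 0.000628), 1.89 in submandibular (adjusted p 0.039) and 5.21 in sublingual gland (adjusted p 3.62e-07). The summed level of this basal list was 5420 TPM in the sublingual library of animal 1, 5780 TPM in that of animal 4 and 160 to 549 TPM in the 4 others.

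The 4 ETS factors of the set differ in what they are known for. ETV1 is a member of the PEA3 group, which acts downstream of fibroblast growth factor signals. ELF5 and EHF are epithelial ETS factors, the former best known from milk-producing cells of the breast, and SPDEF drives mucous and goblet cell differentiation.

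ETV1 ranged from 7.59 to 25.7 TPM in parotid (median 17.0), 2.15 to 26.7 TPM in the submandibular gland (median 24.9) and 2.11 to 35.1 TPM in the sublingual gland (median 11.9). It was 0.787 to 2.3 TPM in pancreas (median 1.61) and 1.8 to 3.57 TPM in liver (median 2.9). The 2 gland libraries that did not exceed every pancreas and liver library were the submandibular and sublingual libraries of animal 4. ETV1 exceeded the pancreas by 2.75 ± 0.47 in the parotid, 2.8 ± 0.47 in the submandibular and 2.05 ± 0.47 in the sublingual gland (standard errors; adjusted p 0.000162, 0.000168 and 0.00321). The sublingual call was lost without animal 2 (adjusted p 0.0514) and when libraries were scaled to genes outside the 100 most abundant (difference 1.5, adjusted p 0.0823). Without the sublingual libraries of animals 1 and 4 the difference was 2.72. The submandibular difference was 3.37 without the pancreas and submandibular libraries of animal 4.

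The other PEA3 factors were not at the level of ETV1 in the glands. ETV4 and ETV5 had medians of 0.304 and 0.123 TPM in parotid and 0.232 and 0.136 TPM in the submandibular gland, and only ETV4 in the sublingual gland came to 3.93 TPM. Of 16 tested genes of fibroblast growth factor signalling and its feedback, limma called 0 higher and 4 lower in parotid than in pancreas (0 and 9 at an unadjusted p below 0.05), 0 higher and 2 lower in submandibular gland (1 and 4 unadjusted), and 2 higher and 1 lower in sublingual gland. Of all genes tested, 2.24%, 2.25% and 10.4% were higher and 13.6%, 7.46% and 3.51% lower in these 3 comparisons. An unadjusted limma p below 0.05 in either direction was reached by 33.3% in parotid and 23.9% in submandibular gland. With trimmed-mean scaling the counts were 0 and 4, 1 and 3, and 3 and 5. The shares of all genes were then 8.92%, 8.25% and 11.4% higher and 8.45%, 7.82% and 9.97% lower. FGFR3 and FGFR4, receptors of the family, were the largest falls in parotid, with differences of -3.2 and -2.07 (adjusted p 3.83e-05 and 1.47e-05).

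ELF5 had overlapping levels in the 3 glands. The parotid had 9.16 to 20.9 TPM (median 14.5), the submandibular gland 0.993 to 19.9 TPM (median 15.9) and the sublingual gland 4.77 to 27.2 TPM (median 11.9). The pancreas had 0.617 to 1.83 TPM (median 1.05) and the liver 1.21 to 4.56 TPM (median 1.7). All gland libraries but the submandibular library of animal 4 were above all of pancreas and liver. With trimmed-mean scaling the medians of parotid and submandibular gland were 22.2 and 26.8, both above that of the sublingual gland. The parotid minus sublingual difference was 0.3 (adjusted p 0.584) as deposited, 1.28 (adjusted p 0.0934) with that scaling and 1.65 (adjusted p 0.041) scaled to genes outside the 100 most abundant. The differences from the pancreas were 2.82 for parotid and 2.52 for either of the others, each ± 0.45 (standard error; adjusted p 5.81e-05, 0.000285 and 0.000189). Without the pancreas and submandibular libraries of animal 4 the submandibular difference was 3.12, and the sublingual difference was 2.94 with animals 1 and 4 left out of that gland (adjusted p 0.000133).

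EHF, by contrast, had a measurable level in the pancreas as well. It ranged from 25.6 to 125.0 TPM in the sublingual gland (median 44.5), from 1.33 to 38.5 TPM in the submandibular gland (median 23.3) and from 4.0 to 27.9 TPM in parotid (median 14.3). The pancreas had 1.42 to 7.4 TPM (median 5.69) and the liver 1.4 to 2.66 TPM (median 1.55). The sublingual libraries did not overlap those of pancreas or liver, while the parotid library of animal 6 and the submandibular library of animal 4 fell within the pancreas range or below it. The sublingual gland exceeded the pancreas by 3.02 ± 0.48 (standard error, adjusted p 5.27e-05). The submandibular difference was 1.57 (adjusted p 0.037), lost in 5 of 6 fits that left out 1 animal and 1.89 (adjusted p 0.000269) without the pancreas and submandibular libraries of animal 4. The parotid difference was 1.35 (adjusted p 0.0575) and became 1.67 (adjusted p 0.0154) without the parotid library of animal 6.

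SPDEF had medians of 43.4 TPM in the sublingual gland (8.93 to 166.0), 27.5 TPM in parotid (9.64 to 41.8) and 23.6 TPM in the submandibular gland (1.59 to 28.9). The pancreas had 1.13 to 3.21 TPM (median 1.33) and the liver 1.32 to 2.45 TPM (median 2.2). Again 17 of 18 gland libraries were above all pancreas and liver libraries, the exception being the submandibular library of animal 4. The differences from the pancreas were 3.24 for the parotid, 2.69 for the submandibular and 3.81 for the sublingual gland, each ± 0.53 (standard error; adjusted p 8.43e-05, 0.00089 and 7.58e-06). Without the pancreas and submandibular libraries of animal 4 the submandibular difference was 3.37, and the sublingual difference was 4.49 with animals 1 and 4 left out of that gland.

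Genes of mucous secretory cells known to act with SPDEF were read beside it. Of 12 tested, limma called 0 higher and 2 lower in parotid than in pancreas (0 and 3 at an unadjusted p below 0.05), 2 higher and 1 lower in submandibular gland, and 8 higher and 1 lower in sublingual gland. The shares of all genes called higher were 2.24%, 2.25% and 10.4%, and those called lower were 13.6%, 7.46% and 3.51%. In parotid, 33.3% of all genes had an unadjusted limma p below 0.05 in either direction. With trimmed-mean scaling the parotid count was 2 higher and 2 lower, beside 8.92% and 8.45% of all genes. BCAS1 of this list reached 1 TPM in submandibular and sublingual libraries alone, so its place in these counts is a description. AGR2, a disulfide isomerase needed for mucin folding, had medians of 2.13 TPM in parotid, 31.2 TPM in submandibular and 65.3 TPM in sublingual gland, and 3.52 TPM in pancreas. MUC5B, a gel-forming salivary mucin, had a median of 13.6 TPM in the sublingual gland, against parotid and submandibular medians of 0.0476 and 0.106 TPM. FOXA3, a forkhead factor of gut and liver that also acts in goblet cells, was lower than in pancreas in each gland, by a difference of -2.7 in parotid (adjusted p 5.55e-06). SPDEF had a median of 27.5 TPM in parotid, where 10 of the 12 mucous genes were lower than in the sublingual gland by limma, beside 40.6% of all genes, and 7 with trimmed-mean scaling, beside 9.11%.

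**Figure D2:**
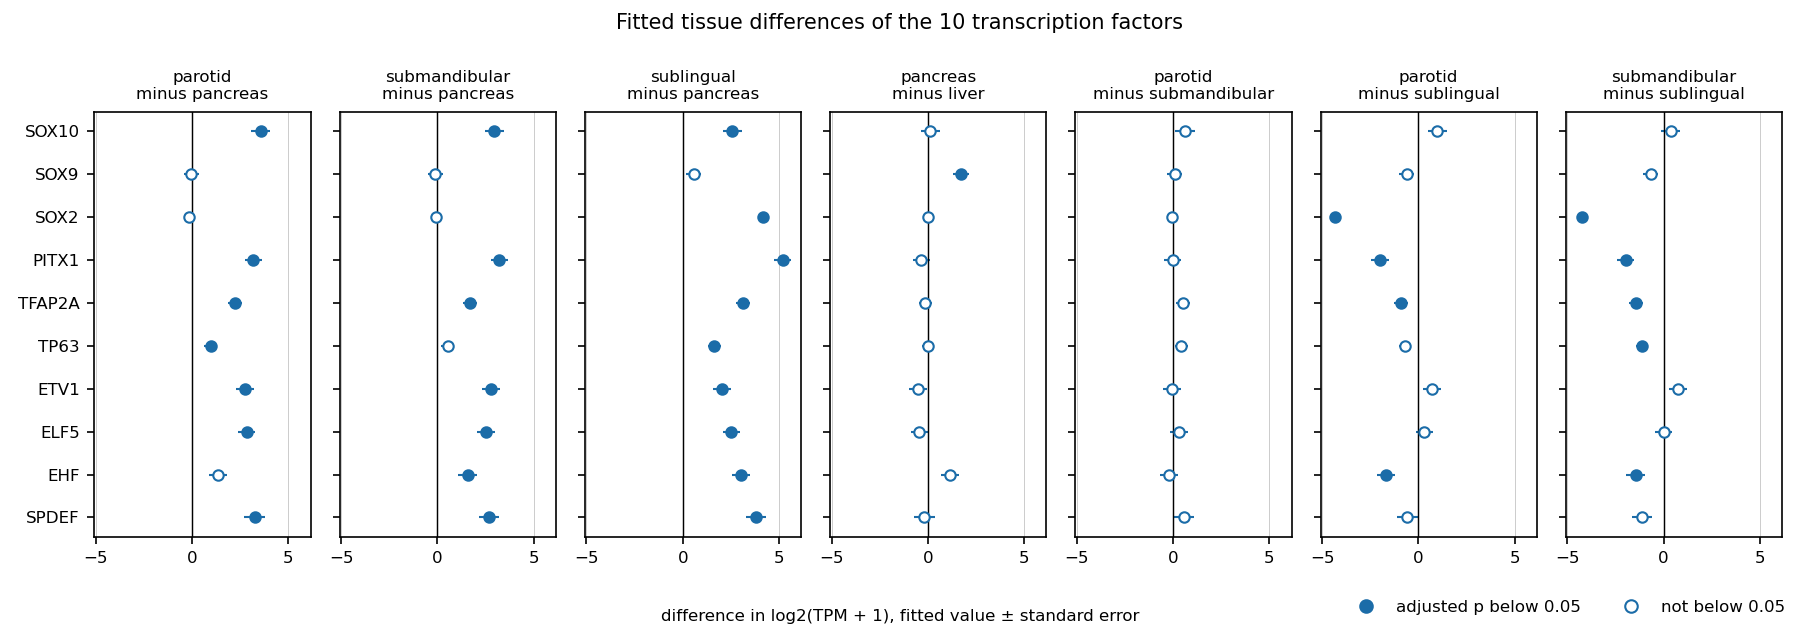
Fitted difference between tissues in log2(TPM + 1) (horizontal axis, with its standard error) for the 10 transcription factors in the 7 comparisons; filled points have a limma adjusted p below 0.05. The filled points lie to the right of 0 in the 3 gland comparisons with the pancreas, and no point is filled between parotid and submandibular gland.

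Between parotid and submandibular gland, 0 of the 10 factors were called by limma, where 0.347% of all genes tested were called in either direction, and 0 had an unadjusted p below 0.05, beside 4.2% of all genes. The exact sign-flip test reached its smallest p for 0 of the factors, and the share of all genes was not worked out for that test. The fitted differences lay between -0.22 (EHF) and 0.61 (SOX10), with standard errors of 0.24 to 0.53, so that differences of this size could not be told from the spread. Without the pancreas and submandibular libraries of animal 4 they lay between -0.86 (EHF) and 0.28 (TP63), and the lowest adjusted p was 0.762.

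Between parotid and sublingual gland, 4 factors (SOX2, PITX1, TFAP2A and EHF) were lower in parotid by limma and none was higher. Of all genes tested, 40.6% were called lower in parotid and 0.893% higher, so that the share of the factors is near the background. With trimmed-mean scaling 1 factor was lower and 2 were higher in parotid, beside 9.11% and 8.43% of all genes. The median difference of the 10 factors was -0.65 and that of all genes tested -0.7. For the submandibular against the sublingual gland, 5 factors (SOX2, PITX1, TFAP2A, TP63 and EHF) were lower, beside 27.2% of all genes, and the medians were -1.12 for the factors and -0.56 for all genes tested. With trimmed-mean scaling 1 was lower and 1 higher, beside 8.26% and 6.46% of all genes. Ranges were apart for SOX2 alone in both comparisons, where 15.2% of all genes were apart and lower in parotid and 2.16% apart and lower in submandibular gland. SOX2 passed the filter only through the sublingual gland, so its place in these counts is a description. Without it 3 of 9 factors were called against parotid and 4 of 9 against submandibular gland, and 0 had ranges apart. It was also the 1 factor lower with trimmed-mean scaling in each comparison. TP63 passed the filter through 5 sublingual and 3 parotid libraries and 0 submandibular ones. Its place in the count for submandibular against sublingual gland is therefore a description too.

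The gland differences of the other factors moved with the scaling of the libraries. With trimmed-mean scaling the median over all genes for parotid against sublingual gland was 0.01 in place of -0.7, and that for submandibular against sublingual gland was -0.01 in place of -0.56. SOX2 kept its calls, with differences of -3.78 and -3.75 (adjusted p 6.06e-14 and 7.11e-14), which describe the difference that let it pass the filter. PITX1 lost its calls, with -0.97 (adjusted p 0.268) and -1.08 (adjusted p 0.218), and EHF lost its calls, with -0.65 (adjusted p 0.493) and -0.49 (adjusted p 0.627). The call of EHF between parotid and sublingual gland was also lost without animal 5 (adjusted p 0.0618), and that between submandibular and sublingual gland was made in 2 of 6 fits that left out 1 animal. TFAP2A came to 0.07 for parotid against sublingual gland, the opposite sign of the -0.91 (adjusted p 0.0464) as deposited. It was called in 2 of 6 fits that left out 1 animal, and was lost without the animal block (adjusted p 0.0569) and without the sublingual libraries of animals 1 and 4 (difference -0.67, adjusted p 0.193). For submandibular against sublingual gland, TFAP2A was -1.42 (adjusted p 0.00613) as deposited and -0.47 (adjusted p 0.409) scaled, and was lost without animal 1 (adjusted p 0.0586). TP63 was -1.12 (adjusted p 0.014) as deposited and -0.42 (adjusted p 0.338) scaled, and was called in 4 of 6 fits that left out 1 animal. No submandibular library reached 1 TPM of TP63, so these values describe the difference that let it pass the filter. SOX10 and ETV1 were called higher in parotid than in sublingual gland with scaling, by 1.97 (adjusted p 0.0169) and 1.67 (adjusted p 0.0381), where they were 0.98 (adjusted p 0.114) and 0.7 (adjusted p 0.227) as deposited. SOX10 was also called as deposited without the pancreas and submandibular libraries of animal 4 (0.98, adjusted p 0.0444), and came to 0.23 (adjusted p 0.717) without the sublingual libraries of animals 1 and 4.

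**Figure D3:**
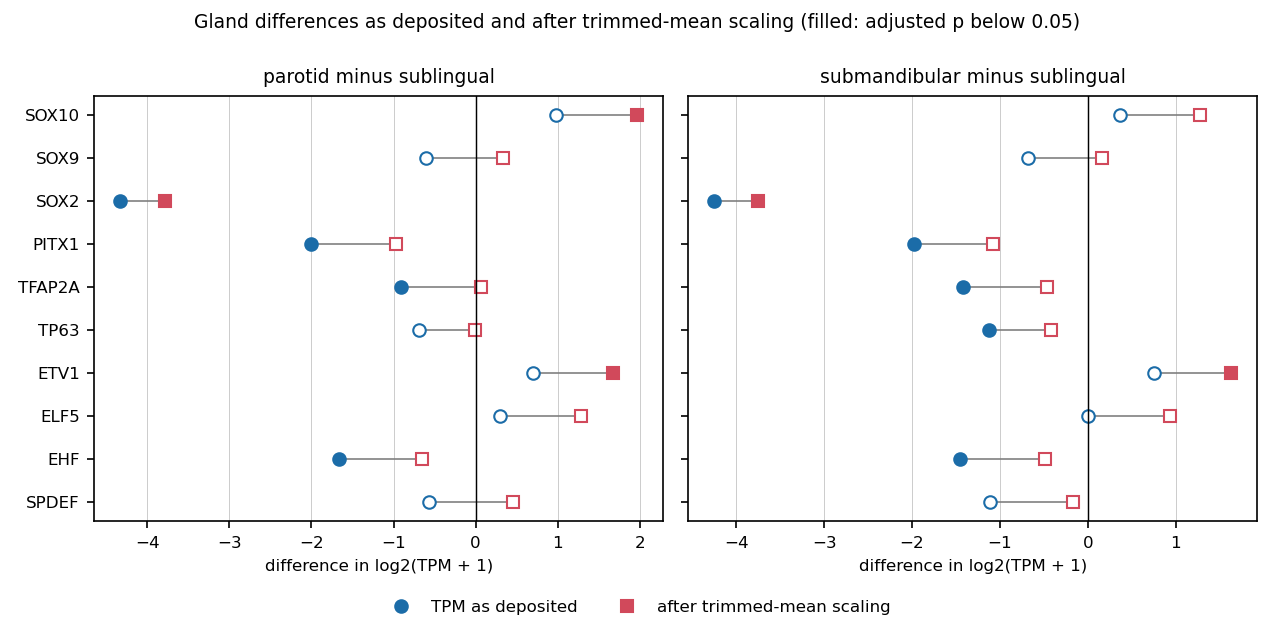
Differences of the 10 factors in log2(TPM + 1) (horizontal axis) for parotid and submandibular minus sublingual gland, from TPM as deposited (circles) and after trimmed-mean scaling (squares); filled symbols have a limma adjusted p below 0.05. Scaling shifts every factor to the right, and SOX2 is the only factor filled on both scales.

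Ratios between factors within a library do not depend on the scaling; the pairs were chosen after the values had been seen and are given as a description. EHF and ELF5 are neighbouring genes, with 0 genes between them in the T2T-MMU8v2.0 annotation of RefSeq, in which all 10 factors were found by symbol. The ratio of EHF to ELF5 was 0.437 to 1.62 in parotid (median 1.16), 1.29 to 1.93 in submandibular gland (median 1.46) and 2.2 to 10.4 in sublingual gland (median 4.05). Every sublingual library was above every parotid and submandibular library, also among the 4 without high squamous genes, where the ratio was 2.2 to 4.61. In pancreas the ratio was 3.52 to 8.66 in 5 libraries and 0.776 in that of animal 4. Across the 30 libraries the Pearson correlation of EHF with ELF5 was 0.78, lower than that of ELF5 with SOX10, ETV1 and SPDEF (0.95 to 0.96); the points share tissues and animals.

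The ratio of PITX1 to SOX10 was 0.626 to 1.84 in parotid, 1.12 to 3.29 in submandibular gland and 1.98 to 185.0 in sublingual gland. Each sublingual ratio was above each parotid ratio, and the 2 highest, 37.1 and 185.0, were those of animals 1 and 4. The ratio of SPDEF to SOX10 was 0.472 to 1.78 in parotid, 0.761 to 1.18 in submandibular gland and 1.66 to 9.56 in sublingual gland. The last 2 ranges do not overlap, and those of parotid and sublingual gland overlap. The ratio of ETV1 to SOX10 stayed within 0.416 to 1.31 over the 18 gland libraries.

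**Figure D4:**
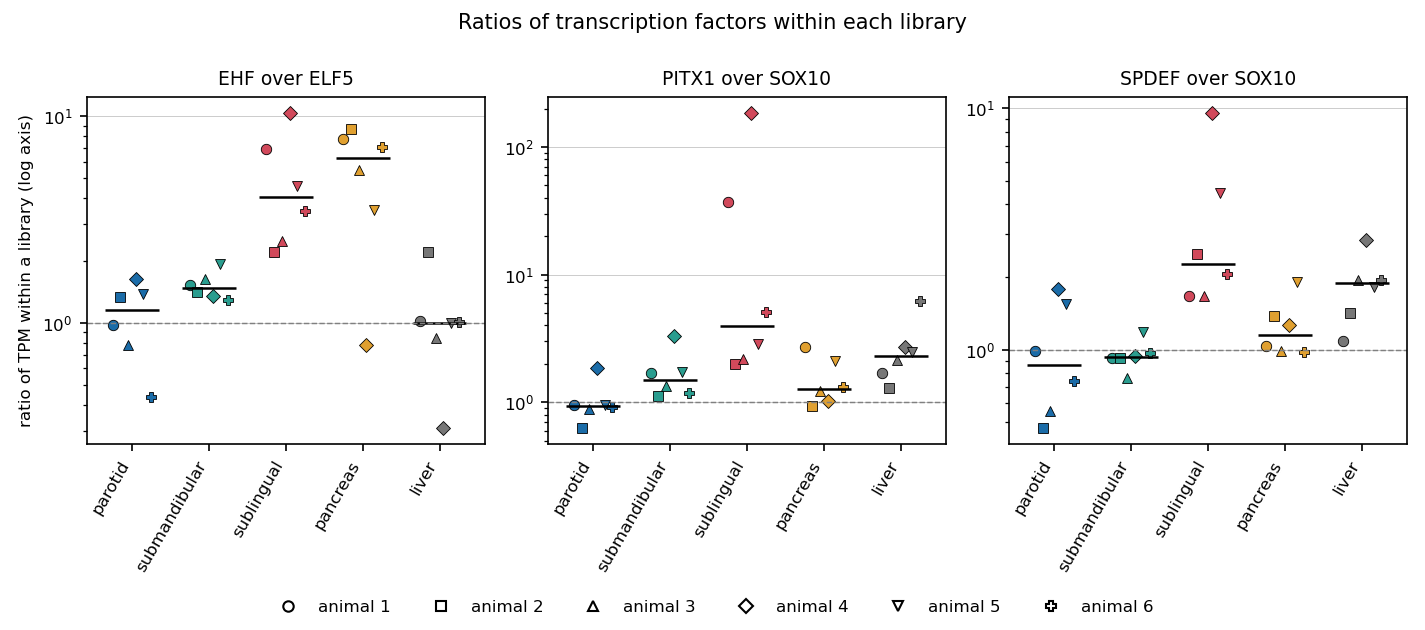
Ratio of TPM between 2 factors in the same library (vertical log axis) for EHF over ELF5, PITX1 over SOX10 and SPDEF over SOX10, by tissue; symbols are libraries and lines medians of 6. The sublingual libraries lie above the parotid and submandibular libraries for EHF over ELF5, at 2.2 or more against 1.93 or less.

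The 6 sublingual libraries fell apart by their squamous epithelium genes, of which 8 were in the table. Against the sums of 29100 and 85700 TPM in animals 1 and 4 stood 118, 4.08, 311 and 3.29 TPM in animals 2, 3, 5 and 6. The ranges of this sum in the other tissues were 2.62 to 404 TPM in parotid, 5.27 to 402 TPM in submandibular gland, 70.9 to 380 TPM in pancreas and 2.95 to 349 TPM in liver. Salivary secretory genes summed to 48100 and 5060 TPM in animals 1 and 4 and to 229000 to 463000 TPM in the other 4.

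In the libraries of animals 1 and 4, PITX1 was above the other 4 (200.0 and 330.0 TPM against 40.0 to 107.0 TPM). SOX10 was below them (5.39 and 1.78 against 7.85 to 41.7 TPM), as were ETV1 (3.59 and 2.11 against 6.51 to 35.1 TPM) and ELF5 (4.77 and 5.23 against 7.35 to 27.2 TPM). SOX2, at 29.4 and 23.5 TPM, lay within the range of the others, and so did EHF at 33.1 and 54.3 TPM. The sublingual library of animal 6 had low SOX9, TFAP2A and TP63 as well (1.86, 1.65 and 0.0482 TPM), with a squamous sum of 3.29 TPM and the highest secretory sum, 463000 TPM. The part of squamous epithelium in these levels was not tested.

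**Figure D5:**
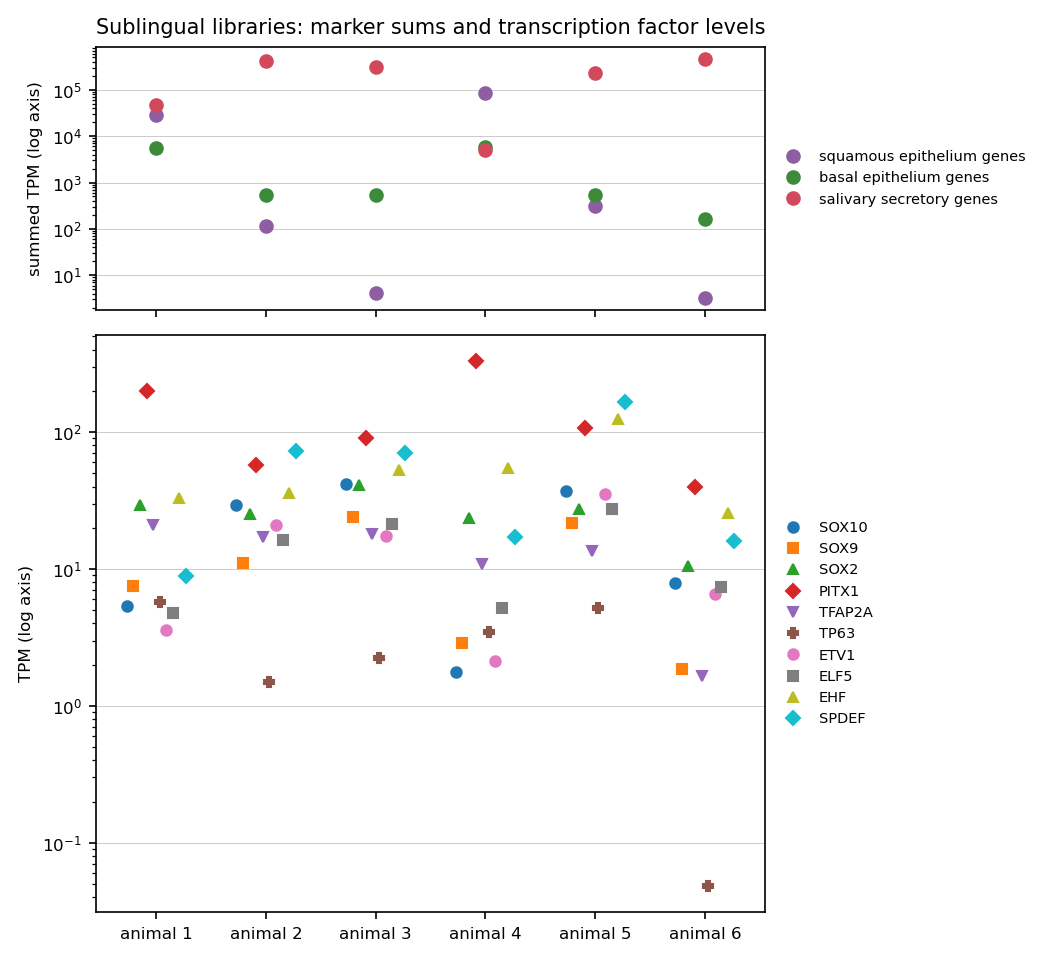
Sublingual libraries of the 6 animals: summed TPM of squamous, basal and salivary secretory genes (upper panel, log axis) and TPM of the 10 factors (lower panel, log axis). In animals 1 and 4, with squamous sums of 29100 and 85700 TPM, PITX1 is highest and SOX10, ETV1 and ELF5 are lowest, while SOX2 stays between 23.5 and 29.4 TPM.

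Without those libraries, PITX1 was still called lower in parotid and submandibular than in sublingual gland (differences -1.37 and -1.34, adjusted p 0.022 and 0.0348). The calls of TP63 and EHF between submandibular and sublingual gland were lost (differences -0.74 and -1.33, adjusted p 0.125 and 0.0846). SPDEF, not called with all libraries (difference -1.11, adjusted p 0.114), was then called lower in submandibular than in sublingual gland (difference -1.79, adjusted p 0.0237). With all libraries its difference was -0.17 (adjusted p 0.88) with trimmed-mean scaling and 0.31 (adjusted p 0.76) scaled to genes outside the 100 most abundant.

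Other members of the same gene families were read beside the set. Of 28 SOX, PITX, AP-2, p53 and ETS family genes listed, 18 passed the filter. Limma called 2 higher and 4 lower in parotid than in pancreas (3 and 1 with trimmed-mean scaling). In submandibular gland 1 was higher and 1 lower, and in sublingual gland 5 were higher. Of all genes tested, 2.24%, 2.25% and 10.4% were higher in these glands, and 13.6%, 7.46% and 3.51% lower. With trimmed-mean scaling 8.92% were higher and 8.45% lower in parotid. TFAP2B, the AP-2 beta gene, had medians of 2.64 TPM in parotid, 0.76 TPM in submandibular and 0.0734 TPM in sublingual gland. TFAP2A had its highest median in the sublingual gland as deposited (15.4 TPM against 5.84 TPM in parotid), but 10.1 against 10.3 with trimmed-mean scaling. TFAP2B was higher in parotid than in sublingual gland by 1.54 ± 0.18 (standard error, adjusted p 1.52e-06) and than in submandibular gland by 1.02 (adjusted p 0.00708). As TFAP2B reached 1 TPM in parotid and submandibular libraries alone, these values describe the difference that let it pass the filter. Its place in the counts of this list is a description too. SOX8, the relative of SOX9 and SOX10, had medians of 4.61, 2.52 and 3.99 TPM in the 3 glands and 1.46 TPM in pancreas, and was higher in parotid than in pancreas by 1.37 (adjusted p 0.00632). TFAP2C, the AP-2 gamma gene, had medians of 0.438, 0.304 and 1.35 TPM in the glands and 0.0454 TPM in pancreas. ELF3, an epithelial ETS factor like EHF, was higher in sublingual gland than in pancreas by 3.19 (adjusted p 1.98e-05).

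Among 27 tested other regulators of salivary, oral or surface epithelium, limma called 9 higher and 3 lower in parotid than in pancreas. In submandibular gland 9 were higher and 2 lower, and in sublingual gland 19 were higher and 1 lower. GRHL1, FOXQ1, ASCL3, TFCP2L1 and ZNF750 stayed below 1 TPM in every pancreas and liver library. They passed the filter through gland libraries alone, so their places in these counts are a description. Of all genes tested, 2.24%, 2.25% and 10.4% were higher in these glands than in pancreas, and 13.6%, 7.46% and 3.51% lower. PAX9, a factor of pharyngeal and oral development, rose in parotid by 3.83 (adjusted p 5.57e-06). XBP1, a factor of secretory cells that the pancreas makes in large amounts, was lower in parotid (difference -2.26, adjusted p 0.000183). Regulators of pancreas and liver moved the other way: of 17 tested, 14 were lower in each gland than in the pancreas, led by RBPJL, the acinar cofactor of PTF1A, with differences of -6.47, -6.51 and -6.1 (adjusted p 1.21e-07, 1.51e-07 and 1.38e-07). Some of this list, such as PDX1, NR5A2, GATA4 and FOXA2, stayed below 1 TPM in every gland library. They passed the filter through pancreas or liver libraries alone, so their places in these counts are a description too.

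For each factor, the 3 genes with the most similar profile were taken by Pearson correlation of log2(TPM + 1) over the 30 libraries, as a description; libraries share tissues, animals and scaling. SOX10, ETV1 and ELF5 were among each other's 3 nearest genes, at 0.954 to 0.957. The other neighbour of SOX10 was LMX1B (0.95), a homeodomain factor with medians of 8.38, 6.8 and 2.6 TPM in the glands. That of ETV1 was TH (0.939), the gene of tyrosine hydroxylase, with medians of 80.4 TPM in parotid, 91.6 TPM in the submandibular and 63.9 TPM in the sublingual gland, against 2.49 TPM in pancreas. AQP5, the water channel of salivary acini, was nearest to SPDEF (0.955) and among the 3 nearest to ELF5 (0.953), with 124.0, 80.0 and 221.0 TPM in the glands.

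PITX1 and TFAP2A shared ZNF750, a factor of squamous differentiation, as nearest gene (0.974 and 0.955). The nearest genes of EHF were PRSS8 (0.955) and CLDN4 (0.948), a membrane protease and a tight junction protein of epithelia. Those of SOX9 included GRHL2 (0.893), a regulator of epithelial junctions. SOX2 had FAM184A (0.953) and GCNT3 (0.941), the latter a mucin glycosylation enzyme with a median of 108.0 TPM in the sublingual gland and 0.923 to 2.37 TPM in the other tissues. The nearest gene of TP63 was ACOT11 (0.911). That of SOX9 was ILDR1 (0.901), the lowest likeness of any factor to its nearest gene.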

How the data were processed

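RNA of 30 libraries from 6 animals was sequenced as read pairs on an Illumina HiSeq, per the labels' protocols. The authors deposited TPM per gene made with kallisto, per the submitters' processing notes; its version and the transcriptome are not given in the sources used here. The TPM of a library sum to 999998 to 1000001, so depth is unknown, and the table has 0 unused sample columns. Differences were fitted to log2(TPM + 1) with limma 3.58.1 in R 4.3.3 (mean-variance trend) over all 30 libraries, with tissue and animal as terms, on the 13550 genes that reached 1 TPM in 6 or more libraries. P-values were two-sided and Benjamini-Hochberg adjusted over those genes, with a threshold of 0.05. The script was tested on simulated data. Animals are the replicates, and the pairing comes from the animal labels: deviations from tissue means correlated at 0.161 on average for the same animal (-0.304 to 0.7) and -0.0186 for different animals. Trimmed-mean scaling left out 30% of log ratios and 5% of mean levels at each end. Named genes were the 10 factors, the 3 most similar profiles of each (uncharacterised LOC symbols left out), and up to 2 of the largest called rises and falls per list; other genes named are markers or family members chosen with their values seen. The factors and lists were chosen with earlier results of these data known. Gene order came from the RefSeq table of T2T-MMU8v2.0, which matched 19177 symbols. Results on some genes that the rule names are not reported here.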

Additional observations from a re-analysis of the deposited data

Results flagged for a closer look

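In 50 sets of 6 libraries (each factor in each tissue), 13 had 1 library whose distance to the nearest other exceeded Dixon's limit as a share of the range, where chance gives about 2.5. The submandibular library of animal 4 accounts for 7 of them, each time as the lowest: SOX10 at 1.7 TPM (others 20.4 to 30.0), PITX1 at 5.58 TPM (29.5 to 42.3), TFAP2A at 0.45 TPM (3.98 to 5.97) and ETV1 at 2.15 TPM (20.8 to 26.7). The other 3 were ELF5 at 0.993 TPM (13.9 to 19.9), EHF at 1.33 TPM (21.1 to 38.5) and SPDEF at 1.59 TPM (18.8 to 28.9). That library held 2580 TPM of salivary secretory genes, against 274000 to 386000 TPM in the others.

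The pancreas library of animal 4 stood apart for SOX10, highest at 2.54 TPM (others 0.971 to 1.34), and as the lowest for SOX9 at 0.645 TPM (5.54 to 9.42) and EHF at 1.42 TPM (5.34 to 7.4). In the sublingual gland, TFAP2A was lowest in animal 6 at 1.65 TPM (10.9 to 21.1). In the liver, ELF5 was highest in animal 4 at 4.56 TPM (1.21 to 1.73) and EHF in animal 2 at 2.66 TPM (1.4 to 1.75).

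Of 70 checks of the 2 sexes (each factor in each comparison), 1 had every female on one side of 0 and every male on the other. How many checks would split in this way by chance was not worked out. SOX10 was higher in parotid than in submandibular gland in the 4 females (mean log2 difference 1.28) and lower in the 2 males (mean -0.74), a difference of 2.02 that was not tested. The females' values were 0.63, 1.1, 0.23 and, in animal 4 with the submandibular library described above, 3.18.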

How the results depend on the processing

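Of the alternatives run on the 33 called differences, 577 values kept direction and call, 76 kept direction only and 4 changed sign; of those on 14 of the 37 uncalled differences (the ones called under a scaling or named in the text), 221 kept both, 38 passed the threshold and 20 changed sign. Leaving out the replicate block, which pairs libraries by animal, ended 1 call, TFAP2A in parotid against sublingual gland (adjusted p 0.0569). Leaving out 1 animal in turn, 25 of 33 calls were kept throughout, and the number of factors called was 6 to 8 for parotid, 6 to 7 for submandibular and 8 to 9 for sublingual gland against pancreas, 1 to 2 for pancreas against liver, 0 between parotid and submandibular gland, and 2 to 5 and 2 to 6 for these 2 against the sublingual gland. Against pancreas these fits called 947 to 2728 of 13550 genes for parotid, 623 to 3946 for submandibular and 1104 to 4277 for sublingual gland. They called 2817 to 6575 for pancreas against liver and 5 to 86 between parotid and submandibular gland. Against the sublingual gland they called 2854 to 8090 for parotid and 1281 to 8865 for submandibular gland. The exact sign-flip test, whose smallest p with 6 animals is 0.03125, gave 1 factor in submandibular gland over pancreas and 3 between pancreas and liver. The share of all genes at that p was not worked out, so sign-flip counts cannot be set against a background. By limma the count between pancreas and liver was 1, and 2 with only the 12 libraries compared, scaled to genes outside the 100 most abundant, with a pseudocount of 0.1, without 2 libraries of animal 4 and without 6 libraries that stand apart. Of 13550 genes, 4114 were called there as deposited and 3964, 5088, 4187, 6609 and 7720 under those settings, in that order. For submandibular against sublingual gland the limma count was 1 with only the 12 libraries of that pair, 2 with quantile normalisation, 2 with trimmed-mean scaling, 3 outside the 100 most abundant, and the sign-flip test gave 3. Those limma settings called 666, 2230, 1995 and 3677 of 13550 genes, in that order. SOX9 changed sign in parotid against pancreas with quantile normalisation (0.44), trimmed-mean scaling (0.52), genes outside the top 100 (0.55), a pseudocount of 0.1 (0.05), without the parotid library of animal 6 (0.02) and over left-out animals (-0.47 to 0.14). In submandibular gland against pancreas SOX9 came to 0.31, 0.33 and 0.42 under the first 3 of these and to -0.35 to 0.07 over left-out animals, and in sublingual gland to -0.12 outside the top 100. TFAP2A in parotid against sublingual gland was 0.03, 0.07 and 0.44 under the same 3 scalings. ELF5 there was -0.01 without 6 libraries and -0.13 without the sublingual libraries of animals 1 and 4. For submandibular against sublingual gland, SOX10 was -0.38 without those 2 libraries and EHF 0.01 and SPDEF 0.31 outside the top 100, where ETV1 and ELF5 in pancreas against liver were 0.04 and 0.03. The causes of these changes were not tested. Leaving out the parotid library of animal 6, or the sublingual libraries of animals 1 and 4, was chosen after seeing the data. Depth is unknown, so levels near 0, as of TP63 and of SOX2 outside the sublingual gland, have no counting error.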
